A study of Mus musculus with 5 samples.

Results

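The 45 genes described here handle or bind calcium, and they were chosen by name from 29818 genes in the count files. All 45 were present in the files of all 5 pups. They comprise 6 genes of store release, 6 calcium pumps, 3 exchangers, 6 genes of store-operated entry, 5 voltage-gated channel subunits, 3 other entry channels, 3 genes of the calmodulin family, 8 calmodulin-dependent kinases, 2 mitochondrial channels, and 3 genes of calcium sensing and the S100 family.

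The cells came from the cartilage of the distal femur and proximal tibia of 5 littermate mouse pups on a C57BL/6J background, whose age was postnatal day 5 by the sample labels and day 3 by the design text. Pups 1 and 2 were labelled wild type (WT). Pups 3, 4 and 5 were labelled mutant, and they carried a conditional knock-in of Trpv4 p.R594H that was switched on by Cre recombinase under the Col2a1 promoter, and hence in cells that express type II collagen or descend from such cells. The Cre line was made on a mixed background and crossed to C57BL/6J, and whether the WT pups carried Cre or the unrecombined allele is not given in the sources used here. By the labels, the cartilage of all pups was digested in solutions with added calcium chloride.

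TRPV4 is a calcium-permeable cation channel of the plasma membrane, and the study asked what expression of an activated form does to growth plate cells. Calcium that enters a cell, or is released from the endoplasmic reticulum through IP3 and ryanodine receptors, is returned by pumps (SERCA into the store, PMCA out of the cell) and by sodium-calcium exchangers. Calmodulin and S100 proteins bind the free ion and pass the signal to kinases and other targets, and an emptied store opens ORAI channels through the sensor STIM. In cartilage these systems act along a sequence in which resting chondrocytes become proliferating, prehypertrophic and finally hypertrophic cells that surround themselves with matrix due to mineralize.

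One library was made from each pup, and the files held between 117746735 and 183322632 unique molecular identifiers (UMIs, each marking 1 captured transcript) per pup. Of 84382 cells, 82516 passed the filters. The median cell held 8521 to 9261 UMIs in the WT pups and 6000 to 7016 in the mutant pups, so that depth was lower in every mutant pup. Xist was detected in 89.8% and 88.4% of the cells of mutant pups 3 and 4 and in at most 0.174% of the cells of the other pups, so the pups differed in sex and both females were labelled mutant. Any 2 libraries shared 3 to 7 cell barcodes. The cells formed 46 clusters, of which 39 could be named from marker genes as 19 cell classes. The label calls the cells chondrocytes, and 43.6% of them fell into 6 chondrocyte classes, while tendon or ligament cells, fibroblasts, perichondrial cells, blood cells and vascular cells made up most of the other named cells. The 7 unnamed clusters held 16.9% of the cells, and 3 of these clusters had between 60680 and 98820 CPM (UMIs per 1000000 UMIs) of Col2a1, the gene of type II collagen.

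Levels are CPM, the UMIs of a gene per 1000000 UMIs of a class in a pup, as mean ± SD over 5 pups. The clusters were made from the same cells, although without the 45 genes, so the levels across classes are a description with no test, and a class is placed above another only where the values of the 5 pups did not overlap. A class was ranked where each pup had at least 20 of its cells, which held for 15 classes. The highest class of a gene is the ranked class with the highest mean, and it can overlap with others. Proliferating, prehypertrophic and hypertrophic cells were deep, with medians of 23590, 23090 and 28760 UMIs against 8346 in resting chondrocytes. Shares of cells with a UMI are therefore the shares expected after thinning to 3000 UMIs, among cells with at least 3000 UMIs. The part left out differed by class, with 10131 of 10706 articular and all 334 hypertrophic cells kept.

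Every gene was detected, with 169 UMIs for Atp2b2 and 364804 for Calm2 over all cells. A mean of 20 CPM was reached by 42 of the 45 genes in at least 1 class and by 25 over all cells, while Ryr3, Tmem38a and Atp2b2 stayed below it in every class. The class named pericytes was 1 cluster, and its 10 leading genes held 4 listed pericyte markers (Myh11, Rgs5, Acta2 and Notch3) beside Tagln, Myl9 and Mylk. Myh11, Acta2, Tagln, Myl9 and Mylk also mark vascular smooth muscle, for which no list was used, so that pericytes and smooth muscle cells cannot be told apart in this class. It was the highest ranked class for 11 genes, followed by synovial or articular progenitors for 10, macrophages for 7, hypertrophic chondrocytes for 4, granulocytes and prehypertrophic chondrocytes for 3 each, articular chondrocytes, perichondrial cells and endothelial cells for 2 each, and Tgfbi-expressing chondrocytes for 1. The highest class lay above the next in all pups for 15 genes, and its mean was at least 2 times the next for 10. The same counts over all genes are not given here. These counts therefore describe the 45 genes and do not set them apart from other genes.

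**Figure D1:**
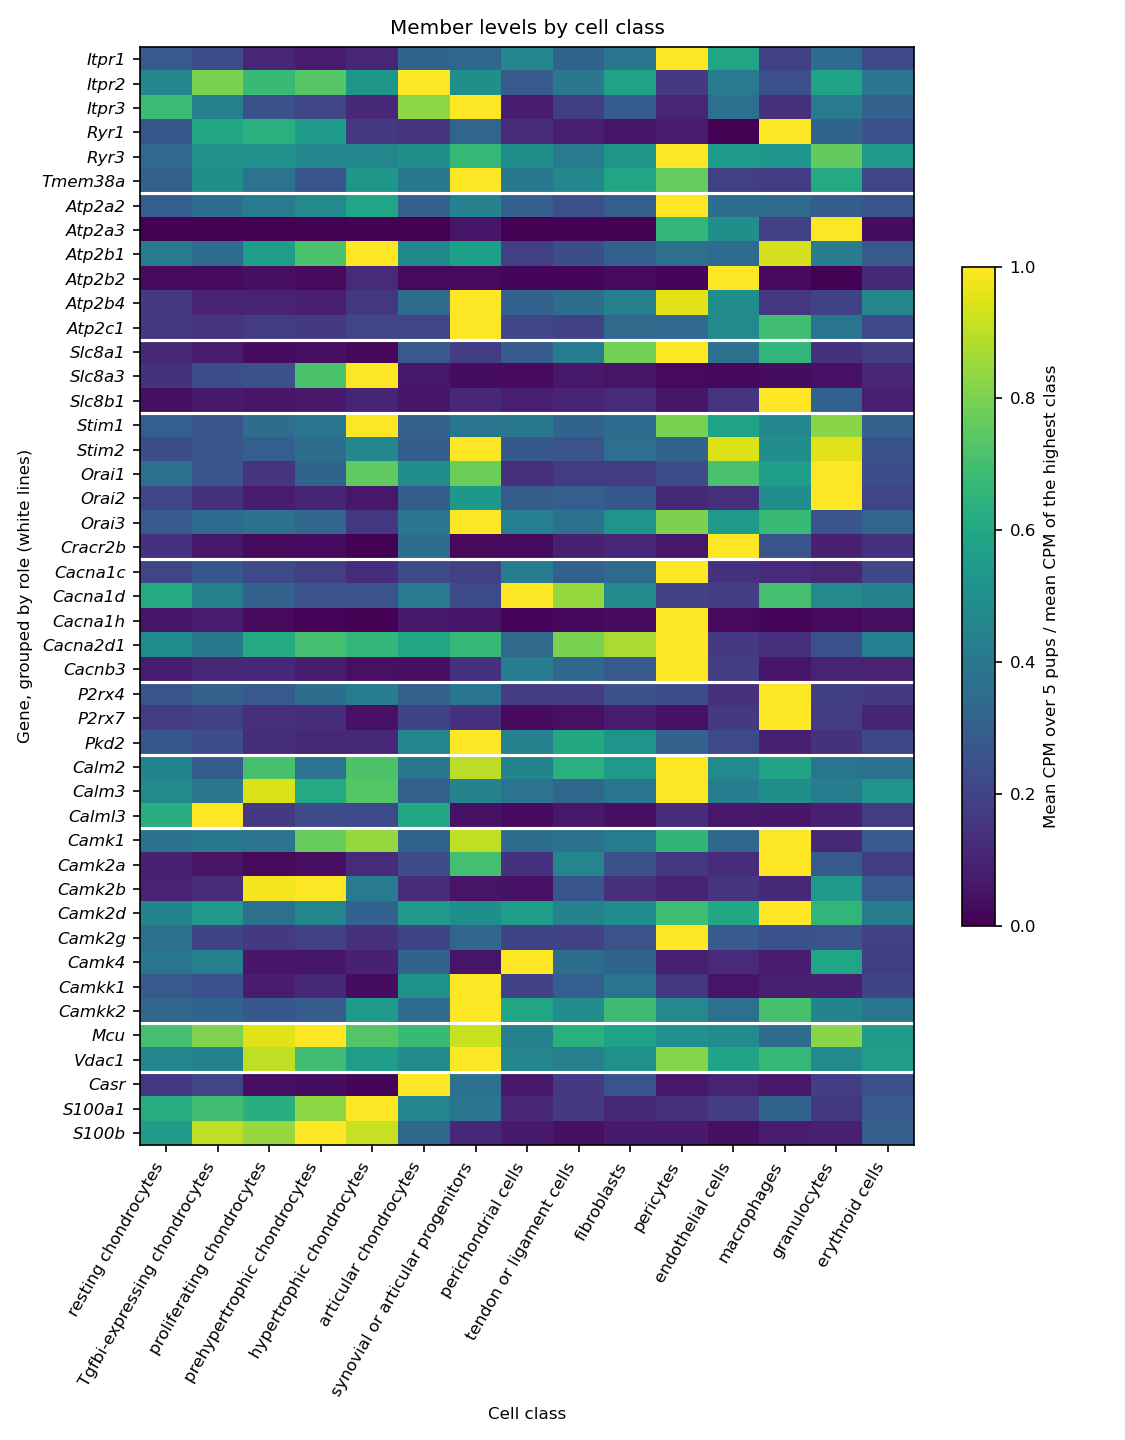
Mean CPM over 5 pups of each gene (rows, grouped by role between white lines) in the 15 ranked cell classes (columns), divided by the gene's mean in its highest class, so that 1.0 marks that class. Bright cells in the column of pericytes mark 11 genes, and the hypertrophic column is bright for Atp2b1, Slc8a3, Stim1 and S100a1.

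Among the genes of store release, the 3 IP3 receptors were highest in different classes. Itpr1 reached 104.5 ± 24.3 CPM in the pericyte class against 29.0 ± 6.88 in resting and 8.4 ± 2.09 in prehypertrophic chondrocytes. Itpr2 was highest in articular chondrocytes, at 132 ± 12.0 CPM, and lay at 21.7 ± 9.38 in pericytes. The articular class overlapped for Itpr2 with Tgfbi-expressing chondrocytes (105 ± 22.2) and granulocytes (76.3 ± 38.9). Itpr3 lay at 58.5 ± 3.60 CPM in synovial or articular progenitors, 48.6 ± 3.19 in articular and 40.1 ± 2.11 in resting chondrocytes, and these 3 sets of pups did not overlap. Without a resting cluster led by cell cycle genes, described with the calmodulin genes, the resting class was at 41.8 ± 2.36 and overlapped with the articular class. Its level was 6.41 ± 2.34 in hypertrophic chondrocytes and 4.57 ± 1.96 in perichondrial cells. The ryanodine receptors were sparse in cartilage. Ryr1, the release channel of skeletal muscle, was at 34.9 ± 7.28 CPM in the skeletal muscle cells of 4 pups and at 1.59 ± 0.299 in resting chondrocytes, and Ryr3 at 2.70 ± 0.299 in the latter.

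Of the pumps, Atp2a2, which encodes the store pump SERCA2, was highest in pericytes, at 657 ± 98.2 CPM. It reached 388 ± 41.8 in hypertrophic and 310 ± 12.8 in prehypertrophic chondrocytes, against 196 ± 8.64 in resting chondrocytes. Its relative Atp2a3 was nearly absent from chondrocytes, at 0.214 ± 0.137 CPM in the resting class. Among ranked classes it was carried by granulocytes (109.5 ± 38.0 CPM), pericytes (72.0 ± 17.4) and endothelial cells (54.6 ± 23.6). Mast cells, which were not ranked, had 208.5 CPM of Atp2a3 in 1 pup. Atp2b1, the widely used plasma membrane pump PMCA1, was at 395 ± 22.7 CPM in resting, 540 ± 41.9 in proliferating, 692 ± 59.3 in prehypertrophic and 967 ± 88.9 in hypertrophic chondrocytes, and each of these 4 classes lay above the one before it in all pups. Macrophages overlapped with hypertrophic chondrocytes, at 899 ± 88.4 CPM. Atp2b4, a second plasma membrane pump, was at 74.7 ± 6.95 CPM in resting, 43.1 ± 4.10 in proliferating, 37.5 ± 1.77 in prehypertrophic and 71.9 ± 10.8 in hypertrophic chondrocytes. The resting and hypertrophic classes overlapped and lay above the other 2. Atp2b4 had its highest mean of 444 ± 73.2 in synovial or articular progenitors, which overlapped with pericytes (425 ± 45.8) and erythroid cells (205 ± 112). Atp2b2 had 32 UMIs in endothelial cells, with 6.16, 9.1, 6.68, 6.86 and 3.54 CPM in pups 1 to 5. All pups lay above the next class, hypertrophic chondrocytes, by a mean ratio of 8.13. The order rests on few UMIs, since the hypertrophic class had 10 in all and pup 5 had 37 endothelial cells. The Golgi pump gene Atp2c1 was highest in synovial or articular progenitors, at 79.2 ± 8.66 CPM against 12.4 ± 0.809 in resting chondrocytes.

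The exchangers Slc8a3 and Slc8a1 were high in different classes. Slc8a3 (NCX3) had 402, 492, 342, 369 and 392 CPM in the hypertrophic chondrocytes of pups 1 to 5, and 238, 313, 377, 264 and 239 CPM in the prehypertrophic chondrocytes. Hypertrophic and prehypertrophic cells overlapped, and both lay above the proliferating class (99.4 ± 7.31 CPM), the resting class (58.7 ± 7.93) and the articular class (25.7 ± 2.80) in all pups. The expected share of cells with a Slc8a3 UMI was 57.5% in hypertrophic and 14.5% in resting chondrocytes, against 2.79% in macrophages and 6.5% in erythroid cells. Erythroid cells lay at 43.45 ± 14.8 CPM and overlapped with the resting class. Slc8a1 (NCX1), the exchanger known from heart and smooth muscle, was low where Slc8a3 was high. It lay at 3.97 ± 3.41 CPM in hypertrophic and 7.15 ± 2.59 in prehypertrophic chondrocytes, and at 190 ± 45.2 in pericytes, 149 ± 32.0 in fibroblasts and 124 ± 14.6 in macrophages. Among chondrocytes it was highest in the articular class, at 52.9 ± 12.4. Slc8b1, which encodes the mitochondrial exchanger NCLX, had 84.0, 97.3, 74.7, 86.5 and 108 CPM in the macrophages of pups 1 to 5. All 5 values lay above those of the next class, granulocytes, by a mean ratio of 3.24, and resting chondrocytes were at 3.61 ± 0.586.

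In store-operated entry, the store sensor Stim1 and the channel Orai1 were both higher in hypertrophic than in resting chondrocytes. Stim1 was at 104 ± 21.3 CPM in hypertrophic and 31.2 ± 1.06 in resting chondrocytes, and Orai1 at 71.2 ± 14.6 and 34.5 ± 5.27, with no overlap of the pups in either case. Orai1 was lowest among the chondrocytes in the proliferating class, at 14.4 ± 1.66. Orai2 was at 3.92 ± 1.34 in hypertrophic against 18.0 ± 1.29 in articular chondrocytes. Stim2 and Orai3 were highest in synovial or articular progenitors, at 88.1 ± 21.1 and 36.1 ± 11.3 CPM. Both overlapped there with other classes, such as granulocytes for Stim2 (84.0 ± 9.78) and pericytes for Orai3 (29.05 ± 2.96). Cracr2b, a regulator of the channel that itself binds calcium, had 93.5, 75.1, 89.1, 63.5 and 110 CPM in the endothelial cells of the 5 pups, and all of these lay above the next class, articular chondrocytes at 31.2 ± 5.31.

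Of the 5 voltage-gated channel subunits, 4 were highest in pericytes. Cacna1h, a T-type channel, had 34.0, 57.3, 35.7, 10.6 and 17.7 CPM there in pups 1 to 5, and its mean was 12.6 times that of the next ranked class. Cacna1c, the L-type channel of smooth muscle, had 52.1, 71.8, 60.2, 51.6 and 49.5 CPM, and Cacnb3, an auxiliary subunit, had 38.5, 40.3, 41.4, 42.4 and 46.0. The pericytes lay above each other ranked class for these 3 genes, although pups 4 and 5 were low for Cacna1h. Osteoblast lineage cells, which were not ranked, had 33.2 ± 10.7 CPM of Cacnb3 in 3 pups and overlapped with pericytes. Cacna1d was highest in perichondrial cells (26.0 ± 4.02 CPM), which overlapped with tendon or ligament cells (21.9 ± 3.61), and lay at 15.9 ± 1.51 in resting chondrocytes. Cacna2d1, another auxiliary subunit, was at 143 ± 17.0 CPM in pericytes and 69.2 ± 5.86 in resting chondrocytes.

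Of the other entry channels, the ATP-gated P2rx4 and P2rx7 were both highest in macrophages, with 36.7, 50.6, 45.2, 26.5 and 46.1 CPM for P2rx4 and 59.0, 94.2, 97.5, 118 and 57.6 for P2rx7. Macrophages lay above each other ranked class in all pups, by a mean ratio to the next of 2.36 for P2rx4 and 4.89 for P2rx7. Of the classes not ranked, Schwann cells had 69.0 and 60.4 CPM of P2rx7 in 2 pups and mast cells 28.3 CPM of P2rx4 in 1 pup, within the range of macrophages. The 2 genes are neighbours, 16.1 kb apart on chromosome 5. With Atp2a2, Camkk2 and Orai1 they make up 5 of the 45 genes within 577 kb (GRCm38, GENCODE M21), and the other 3 were highest in other classes. Pkd2, the calcium-permeable channel polycystin-2 of the store and the cilium, was at 364 ± 27.8 CPM in synovial or articular progenitors, 221 ± 8.80 in tendon or ligament cells, 169 ± 9.84 in articular, 100.2 ± 4.80 in resting and 40.2 ± 5.11 in hypertrophic chondrocytes, and none of these 5 classes overlapped.

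Calmodulin itself is encoded by several genes for the same protein, 2 of them among these 45. Calm2 had 999, 1275, 1040, 839.5 and 1026 CPM in the pericytes of pups 1 to 5, and 464, 471, 446, 484 and 479 in resting chondrocytes, with no overlap. Calm3 had 244, 239, 227, 191 and 173 CPM in pericytes, 190, 216, 200, 195 and 214 in proliferating and 111, 104, 100.5, 103 and 94.2 in resting chondrocytes. Pericytes and proliferating chondrocytes overlapped for Calm3, and both lay above the resting class.

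In the resting class and among tendon or ligament cells, 1 cluster with a high score for cell cycle markers had more of both calmodulin genes than the other clusters of its class. Among the 6 resting clusters, Calm2 lay between 305 and 394 CPM in 5 and at 967 in the sixth, a cluster of 2597 cells with a cycle score of 2.08. The same cluster had 217 CPM of Calm3. Its 10 leading genes included Top2a, Ccna2 and Cdc20, which act in cell division, and none was a resting marker. Its marker score was higher for articular, at 0.4883, than for resting chondrocytes, at 0.4345, and it was named resting because the first resting marker stood out more. Without this cluster the resting class was at 339 ± 22.9 CPM of Calm2 and 72.9 ± 3.94 of Calm3, and pericytes lay further above it. A cluster of 1744 tendon or ligament cells with a score of 2.04 had 1223 CPM of Calm2 and 176 of Calm3. In the erythroid cluster with the highest score of all, 2.38, Calm2 was at 369 CPM, against 383 in the other erythroid cluster, while Calm3 was at 159 against 89.1. These cluster values sum the UMIs of all pups and carry no replicate error.

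Calml3, a calmodulin-like gene known mainly from epithelia, was highest in 3 chondrocyte classes. It had 256, 86.1, 134, 386 and 322 CPM in the Tgfbi-expressing chondrocytes of pups 1 to 5, 158, 78.5, 116, 224 and 170 in the resting class, and 191, 94.5, 98.6, 170 and 158 in the articular class. Pups 2 and 3 were the lowest pups in each of the 3 classes. The pups spread widely, so these 3 classes were not ranked among themselves, but each lay above fibroblasts (9.93 ± 3.70 CPM) and perichondrial cells (7.29 ± 5.60) in all pups. Levels in prehypertrophic, hypertrophic and proliferating chondrocytes were 54.9 ± 19.9, 53.5 ± 15.5 and 39.6 ± 20.01 CPM. Erythroid cells (41.8 ± 18.5) and pericytes (29.75 ± 31.4) overlapped with each of these. Pericytes had 60.91 and 67.21 CPM in pups 4 and 5 and 4.823 to 9.065 in the other pups. The erythroid clusters also held Col2a1, as given with S100b, and the part of chondrocyte RNA in their Calml3 was not tested. The expected share of cells with a UMI was 36.2% in Tgfbi-expressing and 26.2% in resting chondrocytes, against 1.26% in fibroblasts and 5.50% in erythroid cells. It was 11.79% in prehypertrophic, 12.3% in hypertrophic and 9.421% in proliferating chondrocytes, against 1.598% in pericytes. Within the resting class the clusters ranged from 62.8 to 276 CPM, and Calml3 was among the genes that led the highest of them. Calml3 lies at chr13:3802896-3804316 on the minus strand (GRCm38), with no overlapping gene in GENCODE M21.

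The calmodulin-dependent kinases were spread over several classes. Camk2g had 116, 131, 117, 80.8 and 120 CPM in pericytes, above each other ranked class in all pups, and resting chondrocytes came next at 41.4 ± 10.4. Camk2d, Camk1 and Camk2a were highest in macrophages, at 165 ± 32.8, 54.5 ± 12.8 and 34.9 ± 13.5 CPM. Camk2b, an isoform known mainly from brain, had 13.3, 15.0, 10.1, 18.6 and 14.9 CPM in proliferating and 14.2, 15.3, 13.3, 16.04 and 14.4 in prehypertrophic chondrocytes, against 1.40 ± 0.230 in resting, 1.77 ± 0.531 in Tgfbi-expressing and 6.03 ± 1.93 in hypertrophic chondrocytes. The proliferating and prehypertrophic classes did not overlap with the other 3. Its expected share of cells with a UMI stayed low, at 4.09% of prehypertrophic and 0.395% of resting chondrocytes. Camk4, a nuclear kinase, was highest in perichondrial cells, at 84.8 ± 21.8 CPM, and lay at 32.9 ± 3.86 in resting and 5.24 ± 1.07 in prehypertrophic chondrocytes. The upstream kinases Camkk1 and Camkk2 were both highest in synovial or articular progenitors, at 20.6 ± 6.17 and 82.8 ± 4.99 CPM. The mitochondrial uniporter gene Mcu was at 136 ± 10.3 CPM in prehypertrophic and 96.2 ± 4.23 in resting chondrocytes, and the outer membrane channel Vdac1 at 285 ± 11.8 in proliferating and 144 ± 16 in resting chondrocytes, or 117 ± 14.6 without the cycling resting cluster.

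Casr, the calcium-sensing receptor of the cell surface, was highest in articular chondrocytes, with 49.5, 63.7, 81.9, 60.9 and 71.4 CPM in pups 1 to 5. Its mean was 2.67 times that of synovial or articular progenitors (24.5 ± 20.7 CPM), where pup 5 alone reached 61.1 and overlapped with the articular cells. Casr lay at 10.7 ± 3.07 in resting and 1.201 ± 1.37 in hypertrophic chondrocytes, where 17 UMIs were counted in 334 cells. Among the 4 articular clusters it was highest, at 123 CPM, in the cluster of 3104 cells that also had the most Prg4 (44690 CPM), the gene of the joint lubricant lubricin, while the others, of 5467, 1892 and 243 cells, had 47.6, 21.2 and 76.2 CPM. Casr was not confined to the named class, since an unnamed cluster of 1963 cells with 6537 CPM of Prg4 had 113 CPM of it and held it among its 10 leading genes.

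The S100 genes, which encode small calcium-binding proteins used as cartilage markers, were highest in chondrocytes. S100a1 had 226, 232, 229, 196 and 192 CPM in hypertrophic, 207, 175, 179, 168 and 166 in prehypertrophic and 148, 130, 146, 124 and 119 in resting chondrocytes. S100b had 331, 383, 340, 312 and 361 CPM in hypertrophic, 326, 447, 384, 357 and 373 in prehypertrophic and 187, 245, 191, 179 and 235 in resting chondrocytes. For both genes the prehypertrophic and hypertrophic cells overlapped with each other and lay above the resting and the articular class in all pups. Articular chondrocytes had 97.6 ± 12.4 CPM of S100a1 and 128 ± 10.4 of S100b, and fibroblasts 23.9 ± 6.33 and 27.2 ± 6.76. S100a1 was not confined to chondrocytes, and synovial or articular progenitors, at 83.2 ± 10.2 CPM, overlapped with the articular class, while macrophages were at 68.5 ± 11.5. S100b was at 162 ± 41.2 CPM in the Schwann cells of 2 pups and at 114 ± 54.4 in erythroid cells. The erythroid cluster of 394 cells, with 144 CPM of S100b, also had 41810 CPM of Col2a1, the gene of the main cartilage collagen, and the other, of 261 cells, had 25.3 and 13970 CPM. The part of chondrocyte RNA in the erythroid value was not tested. S100b overlaps Dip2a on the other strand, and whether reads were counted by strand is not given in the sources used here.

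**Figure D2:**
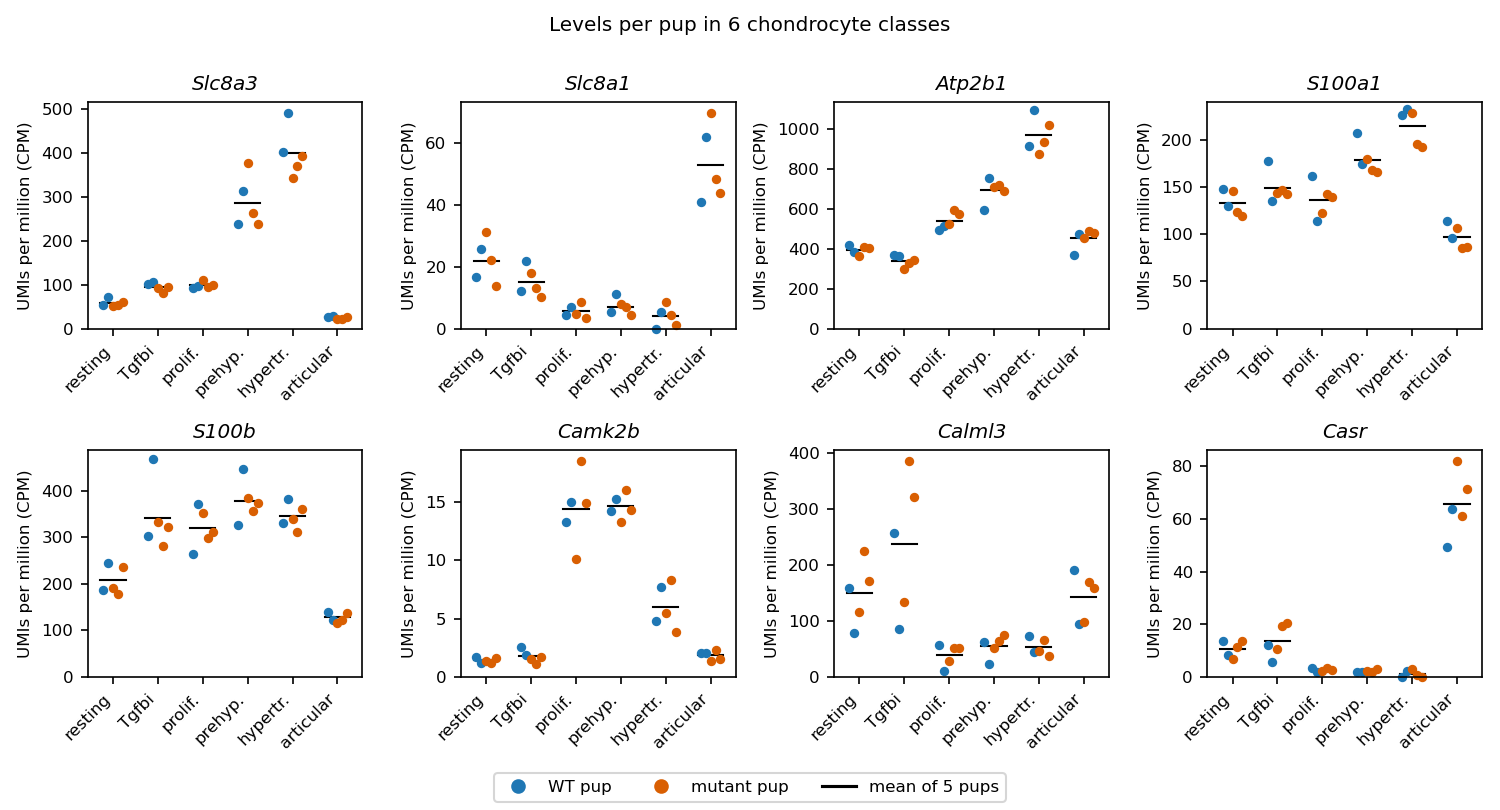
CPM (vertical axes, from 0) of 8 genes in 6 chondrocyte classes, with 1 point per pup (blue WT, orange mutant) and a line at the mean of 5 pups. Slc8a3 and Atp2b1 have their highest means in the hypertrophic class and Slc8a1 its lowest. There Slc8a3 overlaps with the prehypertrophic class, and Slc8a1 with the proliferating and prehypertrophic classes. Camk2b is highest in the proliferating and prehypertrophic classes and Casr in the articular class. Calml3 is highest in the resting, Tgfbi-expressing and articular classes, where its pups spread widest.

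Set against resting chondrocytes, 43 of the 45 genes reached 1 CPM in 1 of the 2 classes, and 16 of these were higher and 17 lower in hypertrophic chondrocytes without overlap of the pups. Of all 14044 genes at that level, 22.3% were higher and 25.9% lower. The 16 higher genes included both S100 genes, both calmodulin genes, Atp2a2, Atp2b1, Slc8a3, Stim1, Stim2 and Orai1, and the 17 lower genes included Slc8a1, Calml3, Casr, Camk4, Pkd2, Itpr1, Itpr3, Orai2 and Orai3. In articular chondrocytes 14 were higher and 7 lower than in the resting class, against 22% and 12.3% of all genes. In joined proliferating chondrocytes, a class that also takes in the prehypertrophic and Tgfbi-expressing cells, 17 were higher and 11 lower, against 29.2% and 18%, and Camk2b, Mcu, Vdac1 and Slc8a3 were among those higher. In perichondrial cells 13 were higher and 19 lower, against 21.9% and 26.7%. In tendon or ligament cells 13 were higher and 16 lower, against 18.1% and 27.8%. Without the cycling resting cluster, 17 were higher and 17 lower in hypertrophic chondrocytes, among them 16 and 17 of those above, against 23.4% and 23% of all genes. In articular chondrocytes 14 were higher and 8 lower, against 26.2% and 9.34%, and 11 and 5 of these were shared with the counts above. Calm2 and Calm3 were then no longer lower there, nor Cacna2d1, Itpr3 and Orai1 higher. In joined proliferating chondrocytes 16 were higher and 11 lower, against 34.5% and 16.3%, with 14 and 10 shared, and Calm2 was among those gained and S100a1 among those lost. In perichondrial cells 14 were higher and 18 lower, against 24.9% and 23.2%, with 13 and 18 shared. In tendon or ligament cells 15 were higher and 15 lower, against 23.4% and 26%, with 13 and 15 shared, and Calm3 was no longer lower in either of these classes.

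The promoters of Slc8a3 and S100b, which were high in the same prehypertrophic and hypertrophic cells, and of Casr, which was high in articular chondrocytes, are shown from the RefSeq table for GRCm38.p6, each from 250 bases before to 50 bases after a start site and in the direction of the gene. The windows are chr12:81333131-81333430 (minus strand), chr10:76253586-76253885 (plus strand) and chr16:36562085-36562384 (minus strand). Capitals mark matches to ACAAAG, a core recognized by SOX factors, or TGTGGT, a core recognized by RUNX factors, on either strand. The 2 motifs do not overlap in these windows.
Slc8a3: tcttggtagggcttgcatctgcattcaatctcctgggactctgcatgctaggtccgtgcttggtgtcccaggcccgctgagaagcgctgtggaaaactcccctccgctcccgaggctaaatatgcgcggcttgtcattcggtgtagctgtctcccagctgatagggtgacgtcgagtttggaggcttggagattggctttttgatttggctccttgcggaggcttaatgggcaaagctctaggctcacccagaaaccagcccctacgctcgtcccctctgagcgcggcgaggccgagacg
S100b: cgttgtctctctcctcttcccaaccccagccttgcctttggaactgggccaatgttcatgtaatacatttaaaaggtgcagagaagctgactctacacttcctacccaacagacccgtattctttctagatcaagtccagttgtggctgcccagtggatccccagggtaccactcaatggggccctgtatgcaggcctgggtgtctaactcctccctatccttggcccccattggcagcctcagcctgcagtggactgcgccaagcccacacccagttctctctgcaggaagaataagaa
Casr: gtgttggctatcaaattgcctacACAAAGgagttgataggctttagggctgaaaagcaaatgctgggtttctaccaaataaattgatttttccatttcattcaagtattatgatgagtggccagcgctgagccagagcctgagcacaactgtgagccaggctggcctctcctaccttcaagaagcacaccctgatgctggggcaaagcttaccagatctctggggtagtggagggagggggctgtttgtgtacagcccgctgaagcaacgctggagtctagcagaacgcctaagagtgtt

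The Casr window held 1 match to ACAAAG, which began 227 bases before the start site. The other 2 windows held no match, which says only that these letters are not in them. Of 32851 promoter windows in the table, 18.7% held ACAAAG and 16.8% TGTGGT. For 34 of the 45 genes the table had 44 windows, of which 9 held ACAAAG and 3 TGTGGT.

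Genotype was compared with edgeR's quasi-likelihood test on UMI sums per pup, 2 WT against 3 mutant pups, with p-values adjusted over all genes of a comparison by the Benjamini-Hochberg method. In all, 7 comparisons were made, over all cells and in 6 classes, of which the class called proliferating here joins the proliferating, prehypertrophic and Tgfbi-expressing chondrocytes. The pups are separate animals. The counts do not show which residue a transcript encodes, so the level of Trpv4 is no check of the labels. Trpv4 had 184 and 117 CPM in the resting chondrocytes of the WT pups and 120, 188 and 194 in those of the mutant pups, as CPM after TMM scaling, the scale of all levels given by genotype. The groups overlapped, and its log2 fold change of mutant over WT was 0.15 ± 0.27 (SE; edgeR adjusted p = 0.958).

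None of the 45 genes passed an adjusted p of 0.05 in edgeR in any of the 7 comparisons. Nor did any other gene in edgeR, so that the share of all genes called was 0% in each. DESeq2 gave an adjusted p in 280 tests of members, of which 0 passed, against 112 of 121974 tests of all genes, or 0.0918%. In perichondrial cells only 15 of the 45 had such a p in DESeq2. The number of the 45 genes that could be tested was 45 over all cells, 43 in resting, 43 in articular, 43 in joined proliferating and 30 in hypertrophic chondrocytes, 40 in perichondrial and 44 in tendon or ligament cells. Of these 288 tests, 8 had an unadjusted p under 0.05 in edgeR, or 2.78%, against 5.68% of the tests of all genes. In DESeq2, run without the filter on low counts, it was 6 of 315, or 1.9%, against 2.38% of all. Of the 288 edgeR tests, 274 gave a log2 fold change between -0.5 and 0.5. The median log2 fold change over the members lay between -0.06 in hypertrophic and 0.09 in joined proliferating chondrocytes, and over all genes between -0.02 and 0.00. Of 103 other calcium genes on a second list, between 48 and 98 were tested in a comparison and none passed.

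**Figure D3:**
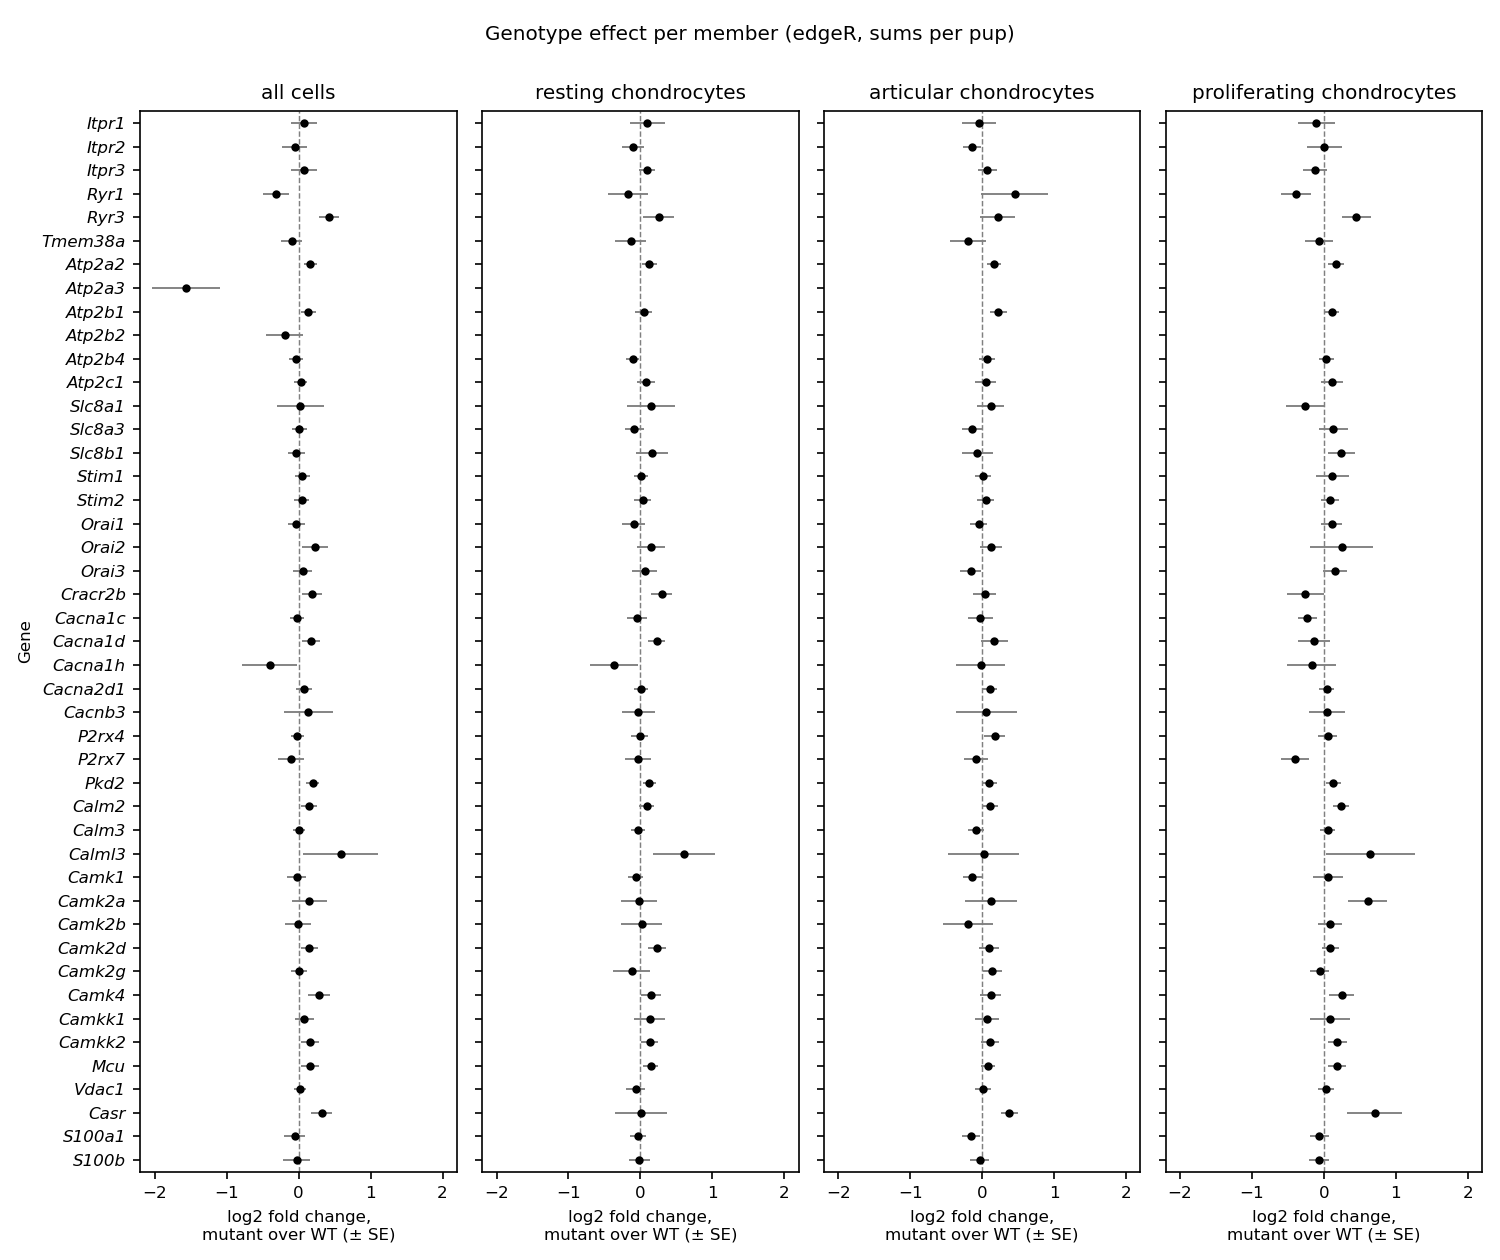
Log2 fold change of mutant over WT (horizontal axis) with its standard error for each of the 45 genes (rows) over all cells and in 3 chondrocyte classes, from edgeR on sums of 2 WT and 3 mutant pups. A missing point marks a gene below the count filter, the dashed line marks no difference, and no point passed the adjusted threshold.

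The 2 genes with the smallest unadjusted p in each comparison are described here, and all of them failed the adjustment. Casr in articular chondrocytes had 51.2 and 59.7 CPM in the WT pups and 77.8, 64.5 and 73.7 in the mutant pups. Each mutant pup lay above both WT pups, and the log2 fold change was 0.38 ± 0.12 (SE, edgeR adjusted p = 0.735). In the same class 3 of 43 members were higher and 0 lower in the mutant pups without overlap, against 11.2% and 12.5% of all genes. The second gene there, Atp2b1, had 380 and 443 CPM in the WT and 429, 517 and 497 in the mutant pups, which overlapped (0.22 ± 0.12, edgeR adjusted p = 0.753).

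Over all cells, Atp2a3 had 5.07 and 4.28 CPM in the WT pups and 2.74, 0.955 and 1.02 in the mutant pups, a log2 fold change of -1.56 ± 0.47 (edgeR adjusted p = 0.841). The groups did not overlap. Granulocytes, the ranked class with the most Atp2a3, numbered 287 and 127 cells in the WT pups and 98, 27 and 37 in the mutant pups, and the share of UMIs in 4 hemoglobin genes was 0.124% and 0.131% against 0.0858%, 0.0235% and 0.0242%. Pericytes, with 654 Atp2a3 UMIs against 687 in granulocytes, numbered 126 and 353 cells in the WT pups and 260, 118 and 39 in the mutant pups, which overlapped. Within granulocytes, Atp2a3 had 157.7 and 107.8 CPM before TMM scaling in the WT pups and 112.2, 51.42 and 118.3 in the mutant pups. In pericytes it had 72.52 and 99 against 73.24, 51.64 and 63.67, and the groups overlapped in both classes. Erythroid cells held 27 Atp2a3 UMIs. The part of these cell types in the difference was not tested, and in a sum over all cells fewer cells of a type and less RNA per cell cannot be told apart. Ryr3 over all cells had 2.92 and 3.14 CPM against 4.08, 4.32 and 3.76 (0.42 ± 0.14, edgeR adjusted p = 0.841). Over all cells 5 members were higher and 2 lower in the mutant pups without overlap, against 10.1% and 12.4% of all genes.

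Ryr3 was also among the 2 in joined proliferating chondrocytes (0.45 ± 0.20, edgeR adjusted p = 0.907) and in perichondrial cells, where it had 2.15 and 2.63 CPM in the WT and 3.85, 5.51 and 5.51 in the mutant pups (0.99 ± 0.34, edgeR adjusted p = 0.516). These comparisons share pups, and Ryr3 overlaps Aven in the annotation. Tmem38a, a counter-ion channel of the store, was the second gene in perichondrial cells, with 3.65 and 5.66 CPM against 2.37, 2.98 and 2.63 (-0.85 ± 0.32, edgeR adjusted p = 0.516). Camk2a was the second in the joined proliferating class, with 1.32 and 0.979 CPM in the WT and 1.83, 1.91 and 1.51 in the mutant pups (0.61 ± 0.27, edgeR adjusted p = 0.907). All of these are genes of low level.

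In hypertrophic chondrocytes, which numbered between 30 and 121 cells a pup, Slc8a3 had 418 and 490 CPM in the WT pups and 341, 376 and 401 in the mutant pups. The groups did not overlap, and the log2 fold change was -0.29 ± 0.13 (edgeR adjusted p = 1.00). Atp2a2 had 344 and 365 CPM against 391, 442 and 430 in these cells (0.25 ± 0.13, edgeR adjusted p = 1.00). Here 3 members were higher and 4 lower in the mutant pups without overlap, against 10.4% and 10.3% of all genes. Atp2a2 was also the second gene in tendon or ligament cells, with 148 and 145 CPM in the WT and 172, 179 and 165 in the mutant pups (0.24 ± 0.09, edgeR adjusted p = 0.925), and Ryr1 was the first, with under 1 CPM in every pup (-1.08 ± 0.38, edgeR adjusted p = 0.925). In resting chondrocytes, Cracr2b had 9.42 and 12.3 CPM against 13.8, 12.3 and 13.7, and Cacna1d 13.98 and 14.8 against 16.5, 15.7 and 18.4, with log2 fold changes of 0.29 ± 0.15 and 0.23 ± 0.12 (edgeR adjusted p = 0.846 for both). The groups overlapped for Cracr2b and not for Cacna1d. In resting chondrocytes 2 members were higher and 1 lower in the mutant pups without overlap, against 10.8% and 12% of all genes. The counts were 5 and 2 in joined proliferating chondrocytes (9.92% and 10.9% of all genes), 5 and 1 in perichondrial cells (13.7% and 14.4%) and 4 and 1 in tendon or ligament cells (11.1% and 11.9%).

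Whether the effect of genotype differed between classes was tested as an interaction with the pup as a block, with resting chondrocytes set against 4 other classes in turn. Calml3 was the only one of the 45 genes past an adjusted p of 0.05, in articular against resting chondrocytes, where 0.0195% of all genes passed. Its CPM in articular chondrocytes divided by those in resting chondrocytes were 1.207 and 1.204 in the WT pups and 0.847, 0.757 and 0.927 in the mutant pups. The ratio was above 1 in both WT pups and below 1 in all 3 mutant pups. The difference of the 2 log2 fold changes was -0.56 ± 0.08 (SE, edgeR adjusted p = 0.0326). In neither class alone did the genotypes differ past the threshold, with log2 fold changes of 0.60 ± 0.43 in resting and 0.02 ± 0.49 in articular chondrocytes (edgeR adjusted p = 0.870 and 0.994). Pups 2 and 3 were low and pups 1, 4 and 5 high in both classes. The call was also lost when the cycling resting cluster was left out, with a difference of -0.58 ± 0.10 and an edgeR adjusted p of 0.188, while the ratios were then 1.1 and 1.08 in the WT pups and 0.746, 0.677 and 0.853 in the mutant pups. With that cluster counted as articular it was lost as well (-0.49, edgeR adjusted p = 0.320), and the ratios were 0.947 and 0.920 in the WT pups and 0.669, 0.625 and 0.759 in the mutant pups, so that all 5 lay below 1. The groups did not overlap in either case. Both alternatives were chosen after seeing the data. It was lost with RLE size factors, where the adjusted p was 0.0950, with a Leiden resolution of 0.8 or a mitochondrial limit of 20%, where it was 1 and 0.446, and without pup 1, 3 or 4, where it lay between 0.0728 and 0.466. Among the 3 pups without Xist the ratio was 1.207 and 1.204 in the WT pups and 0.927 in the mutant pup, and the part of sex in the result was not tested.

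**Figure D4:**
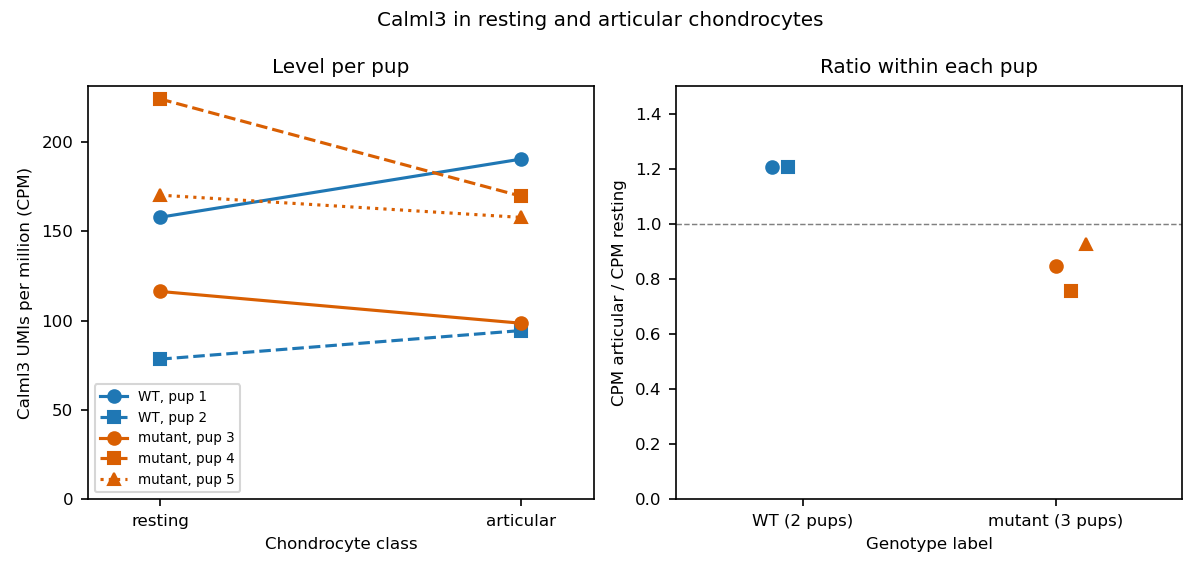
Left, Calml3 CPM in the resting and articular chondrocytes of each pup, joined by a line. Right, the ratio of the articular to the resting value in each pup by genotype label, with a dashed line at 1: the WT pups lie at 1.207 and 1.204 and the mutant pups between 0.757 and 0.927.

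Other values were lowest in pups 2 and 3, as were the Calml3 levels in resting and articular chondrocytes. The Calml3 ratio of articular to resting was instead lowest in mutant pups 3 and 4. Trpv4 in articular chondrocytes had 187 and 115 CPM in WT pups 1 and 2 and 114, 182 and 158 in mutant pups 3, 4 and 5, again lowest in pups 2 and 3. The share of UMIs in 19 cartilage matrix genes in articular chondrocytes was 14.1% and 10.1% in the WT pups and 9.59%, 13.5% and 13.3% in the mutant pups, and in resting chondrocytes 18.8% and 17.7% against 17.9%, 19.6% and 20.02%. Their part in the result for Calml3 was not tested. In hypertrophic against resting chondrocytes, the Calml3 ratio was 0.463 and 0.577 in the WT pups and 0.390, 0.297 and 0.218 in the mutant pups, with a difference of -0.83 ± 0.20 that did not pass (edgeR adjusted p = 0.132). In that pair 0.0324% of all genes passed with all 5 pups. Calml3 passed without mutant pup 3 and with a Leiden resolution of 0.8, with edgeR adjusted p of 0.00363 and 0.0333. The shares of all genes passing in these alternative fits are not given here. A fit without WT pup 1 has 1 WT pup, so no p is given for it. The hypertrophic values rest on 92 and 123 Calml3 UMIs in the WT pups and 149, 88 and 29 in the mutant pups. Pup 5, with the lowest ratio, had 30 hypertrophic cells. In joined proliferating chondrocytes the ratio was 0.841 and 0.550 in the WT and 0.629, 0.710 and 0.982 in the mutant pups, which overlapped (0.14 ± 0.25, edgeR adjusted p = 0.999). None of the 45 genes passed in edgeR's test of hypertrophic, joined proliferating or perichondrial cells against resting chondrocytes, where 0.0324%, 0% and 0.00649% of all genes passed and 5 of 45, 2 of 44 and 1 of 43 members tested had an unadjusted p under 0.05, against 4.31%, 3.61% and 5.43% of all genes. In articular against resting chondrocytes it was 2 of 43, against 4.87%. DESeq2 was not run for these differences.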

How the data were processed

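The deposited files hold raw UMI counts, 1 table of genes by cells for every pup, from BD Rhapsody libraries that the authors processed with a commercial pipeline for demultiplexing, barcode assignment and quantification, without normalization. The submitters' processing notes name mm10, and the pipeline version is not given in the sources used here. Cells with under 200 or over 6000 genes or over 10% mitochondrial UMIs were left out, which are the limits of the study's methods. Analytic Pearson residuals over 3000 variable genes, without the calcium genes, were clustered (scanpy 1.11.5, leidenalg 0.10.2, resolution 1.5). Clusters were named from marker lists, by limits set after seeing the data: at least 3 markers above the rest, and no other class with more markers among the 10 leading genes. Among chondrocyte classes within 0.5 of the best score, the first-listed marker decided, and 5 of 39 named clusters took a name other than their best scored class. The cell cycle list was not used for names, so 1 cluster led by such genes was named resting. UMI counts were summed per pup and class and tested with edgeR 4.0.16 (TMM, filterByExpr, robust fit) and DESeq2 1.42.0. The tests were checked on simulated data, and the outcome is not given here. The members and the gene lists were chosen with earlier results of these data known. The text names the 2 members with the smallest unadjusted p in each comparison, the 10 members with a highest class of at least 2 times the next, and Calm2, Calm3, S100a1 and S100b. Other members, and the promoter motifs, were chosen after their values were seen. Scrublet marked 0% of cells, which is no working call, so doublets stayed in, and an alternative left out the 5% of cells with the highest scores. Alternatives are given in the closing section.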

Additional observations from a re-analysis of the deposited data

Results flagged for a closer look

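The effect of genotype on Calml3 differed between articular and resting chondrocytes in the test of that difference, with a log2 difference of -0.56 (articular minus resting). The articular value divided by the resting value was above 1 in both WT pups and below 1 in all 3 mutant pups. The difference was -0.58 when the resting cluster led by cell cycle genes was left out and -0.49 when it was counted as articular, and passed in neither case. In the second case the value was below 1 in all 5 pups. The difference also did not pass with RLE size factors, with a Leiden resolution of 0.8 or with a mitochondrial limit of 20%. Nor did it pass without mutant pup 3 or mutant pup 4. No other of the 45 genes passed such a test. Groups of 2 and 3 pups are too small to be searched for outlying pups.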

How the results depend on the processing

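No paired analysis was possible because the labels give WT and mutant pups no shared replicate numbers. The genotype effects of the 2 members with the smallest p in each comparison, 14 in all, kept their sign and their side of the threshold throughout. That held in all 167 checks, each of 1 effect under 1 alternative. The 14 were picked by their p in these same data, and their smallest edgeR adjusted p was 0.516. The choice itself favours kept signs and sides, so these checks are no evidence of an effect. Of the other effects given, that of Calml3 in resting chondrocytes kept its sign, that of Trpv4 there ran from -0.13 without WT pup 2 to 0.52 without WT pup 1, and that of Calml3 in articular chondrocytes from -0.44 to 0.71 without the same pups, and was also below 0 without mutant pup 4 or 5. None of these passed. The number of all genes called, 0 with edgeR, was 48 over all cells, 25 in resting, 1 in articular, 14 in joined proliferating and 2 in hypertrophic chondrocytes, 19 in perichondrial and 3 in tendon or ligament cells with DESeq2. Without the filter on low counts it was 31 in resting, 54 in articular, 6 in joined proliferating and 18 in hypertrophic chondrocytes, 117 in perichondrial and 2 in tendon or ligament cells. With a Leiden resolution of 2.5 it was 1 in perichondrial cells. Leaving out 1 pup at a time gave 0 to 6 over all cells, 0 to 24 in resting, 0 to 7 in articular, 0 to 6 in joined proliferating and 0 to 16 in hypertrophic chondrocytes, 0 to 11 in perichondrial and 0 to 6 in tendon or ligament cells, with the highest count without WT pup 2 in resting, articular, joined proliferating and hypertrophic chondrocytes and without mutant pup 5 in the others, and in articular chondrocytes without either. Without a WT pup the other is assumed to vary like the mutant pups. The Calml3 difference between articular and resting chondrocytes was -0.55 with RLE size factors, -0.47 with a resolution of 0.8, -0.41 with a mitochondrial limit of 20%, -0.58 without the cycling resting cluster, -0.49 with it counted as articular, and -0.63 to -0.50 without 1 pup. In joined proliferating against resting chondrocytes it was -0.0449 with a resolution of 2.5 and -0.18 to 0.47 without 1 pup, below 0 without WT pup 2 or mutant pup 5. The number of the 45 genes called between articular and resting chondrocytes was 1, and 0 with RLE size factors, with a resolution of 0.8, with the 20% limit and under both cycling cluster alternatives, and 0 to 1 without 1 pup. In hypertrophic against resting chondrocytes the number was 0, and 1 with a resolution of 0.8 and 0 to 1 without 1 pup. The number of the 45 genes with a highest class at least 2 times the next, 10, was 12 at both other resolutions, 14 with the 20% limit, 11 without the highest doublet scores, 10 without the cycling resting cluster, 11 with it counted as articular and 10 to 11 without 1 pup, and the highest class was the same for 42, 44, 40, 43, 45, 45 and 43 to 45 genes. The clustering, mitochondrial, doublet and cycling cluster alternatives for these differences were chosen after seeing the data. For the differences between classes, the shares of all genes called under the alternatives are not given here. The counts of the 45 genes called there therefore cannot be set against such shares. The cause of these changes was not tested. The doublet alternative planned with Scrublet's own threshold had no effect, since it marked 0% of cells, and no cluster was named hypertrophic with the 20% limit. Depth limits the genes under 20 CPM, and the number of cells limits the hypertrophic class, which held 334 cells.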
